A study of Mus musculus with 26 samples.

Results

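Progranulin, encoded by Grn, and 6 genes of its lysosomal trafficking were followed in microglia, the resident macrophages of the brain, from mice of 7 genotypes. The 7 genes were chosen by name: Grn itself, its sorting receptor gene Sort1, its co-passenger Psap, the receptor gene Lrp1 through which prosaposin is taken up, the mannose 6-phosphate receptor genes M6pr and Igf2r, and Slpi. All 7 were found among the 52636 genes of the files, and all 7 passed the filter on low counts, as did 21371 genes in all. The measurement was bulk RNA sequencing of poly(A) RNA in 26 libraries. The 7 groups were Tmem106b KO Grn WT (n = 4), Tmem106b HET Grn KO (n = 3), Tmem106b HET Grn HET (n = 3), Tmem106b HET Grn WT (n = 4), Tmem106b WT Grn KO (n = 4), Tmem106b WT Grn HET (n = 5) and Tmem106b WT Grn WT (n = 3). TMEM106B is a transmembrane protein found mainly in lysosomes, and the study asked how lowering it bears on microglia short of progranulin. KO, HET and WT are the genotype labels; neither the alleles, the age of the mice nor the way the cells were isolated is given in the sources used here. Nothing in the labels says that each library came from a separate mouse, so the p-values speak of variation from library to library, which may be technical.

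Progranulin is a secreted glycoprotein that is carried to the lysosome, where proteases cut it into granulin peptides. It reaches the lysosome by binding sortilin, the product of Sort1, or together with prosaposin, which uses LRP1 at the cell surface and the mannose 6-phosphate receptors inside the cell. Prosaposin is cut in the lysosome into the saposins, which help enzymes break down sphingolipids. SLPI, a secreted inhibitor of serine proteases such as neutrophil elastase, binds progranulin and protects it from cleavage outside the cell.

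Total counts were 37.6 to 63.7 M per library. By their labels 14 libraries were female and 12 male, and 18 came from an Entire and 8 from a Hemi dissection. All 8 microglial marker genes listed were detected in every library, but their summed level was 9692 CPM (each count scaled to the library total) in Tmem106b KO Grn WT replicate 2 and 10420 CPM in Tmem106b HET Grn KO replicate 3, below all the others. In these bulk libraries fewer microglia and less of a transcript per microglial cell cannot be told apart. Tmem106b transcript was at 24.0 to 35.7 CPM in the 4 Tmem106b KO libraries, 39.1 to 83.4 CPM in the 10 Tmem106b HET libraries and 57.5 to 102 CPM in the 12 Tmem106b WT libraries, so reads of the gene remained in the libraries labelled KO.

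Promoter windows of 3 of the genes are shown because they differ in 1 motif discussed with the results: the 8-base palindrome TCACGTGA, the core of the sequence bound by TFEB, a transcription factor of lysosomal genes. The windows are RefSeq sequences of assembly GRCm38.p6, running 5′ to 3′ on the gene's strand from 250 bases before the annotated start to 50 bases after it. Capitals mark TCACGTGA. The Igf2r window lies at chr17:12769657-12769956 on the minus strand, the Lrp1 window at chr10:127621099-127621398 on the minus strand, and the first of the 2 Psap windows at chr10:60277378-60277677 on the plus strand.
Igf2r: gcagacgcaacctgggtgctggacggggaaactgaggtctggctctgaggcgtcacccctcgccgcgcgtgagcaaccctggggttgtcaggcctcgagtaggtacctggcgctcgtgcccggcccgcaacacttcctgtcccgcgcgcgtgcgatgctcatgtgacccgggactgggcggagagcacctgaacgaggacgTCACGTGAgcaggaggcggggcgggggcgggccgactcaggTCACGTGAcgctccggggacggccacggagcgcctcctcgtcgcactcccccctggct
Lrp1: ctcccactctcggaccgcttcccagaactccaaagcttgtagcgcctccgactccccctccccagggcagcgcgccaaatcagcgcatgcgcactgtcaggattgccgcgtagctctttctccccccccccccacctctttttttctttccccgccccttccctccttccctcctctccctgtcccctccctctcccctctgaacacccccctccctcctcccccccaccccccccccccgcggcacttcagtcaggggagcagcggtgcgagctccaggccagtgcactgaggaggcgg
Psap: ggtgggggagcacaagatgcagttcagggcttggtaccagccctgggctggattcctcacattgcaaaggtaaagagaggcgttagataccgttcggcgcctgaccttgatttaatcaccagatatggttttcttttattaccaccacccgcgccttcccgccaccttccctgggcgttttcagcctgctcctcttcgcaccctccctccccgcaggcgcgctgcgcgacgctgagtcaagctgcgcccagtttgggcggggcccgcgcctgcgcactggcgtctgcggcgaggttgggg
The Igf2r window held the palindrome at 2 places, with first bases 49 and 8 bases before the start, whereas the windows of Lrp1, Psap, Grn and Slpi held none. The motif was in 0.974% of 32851 promoter windows of all genes, and being its own reverse complement it reads the same on both strands. The shorter palindrome CACGTG, which lies inside it, was in 7.15% of all windows and, of the 5 of the 7 genes with a window, in those of Igf2r and Slpi. The motifs were picked after the expression values were known, and a match or its absence describes these letters alone.

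Measured per length of transcript, as the authors' deposited RPKM, the 7 genes spanned a wide range in microglia. The median over the 26 libraries was 1534 RPKM for Psap and 616 RPKM for Grn. It was 80.5 RPKM for M6pr, 28.8 RPKM for Lrp1 and 28.4 RPKM for Sort1. The second mannose 6-phosphate receptor gene, Igf2r, stood at a median of 0.475 RPKM and Slpi at 0.109 RPKM, and Slpi had a count in 15 of the 26 libraries. Between libraries the coefficient of variation of CPM was 21.5% for M6pr and 25.2% for Psap, against 38.8% for Sort1 and 39.4% for Lrp1. All further gene levels are CPM of the TMM-scaled library total (TMM corrects library totals for differences in composition).

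**Figure D1:**
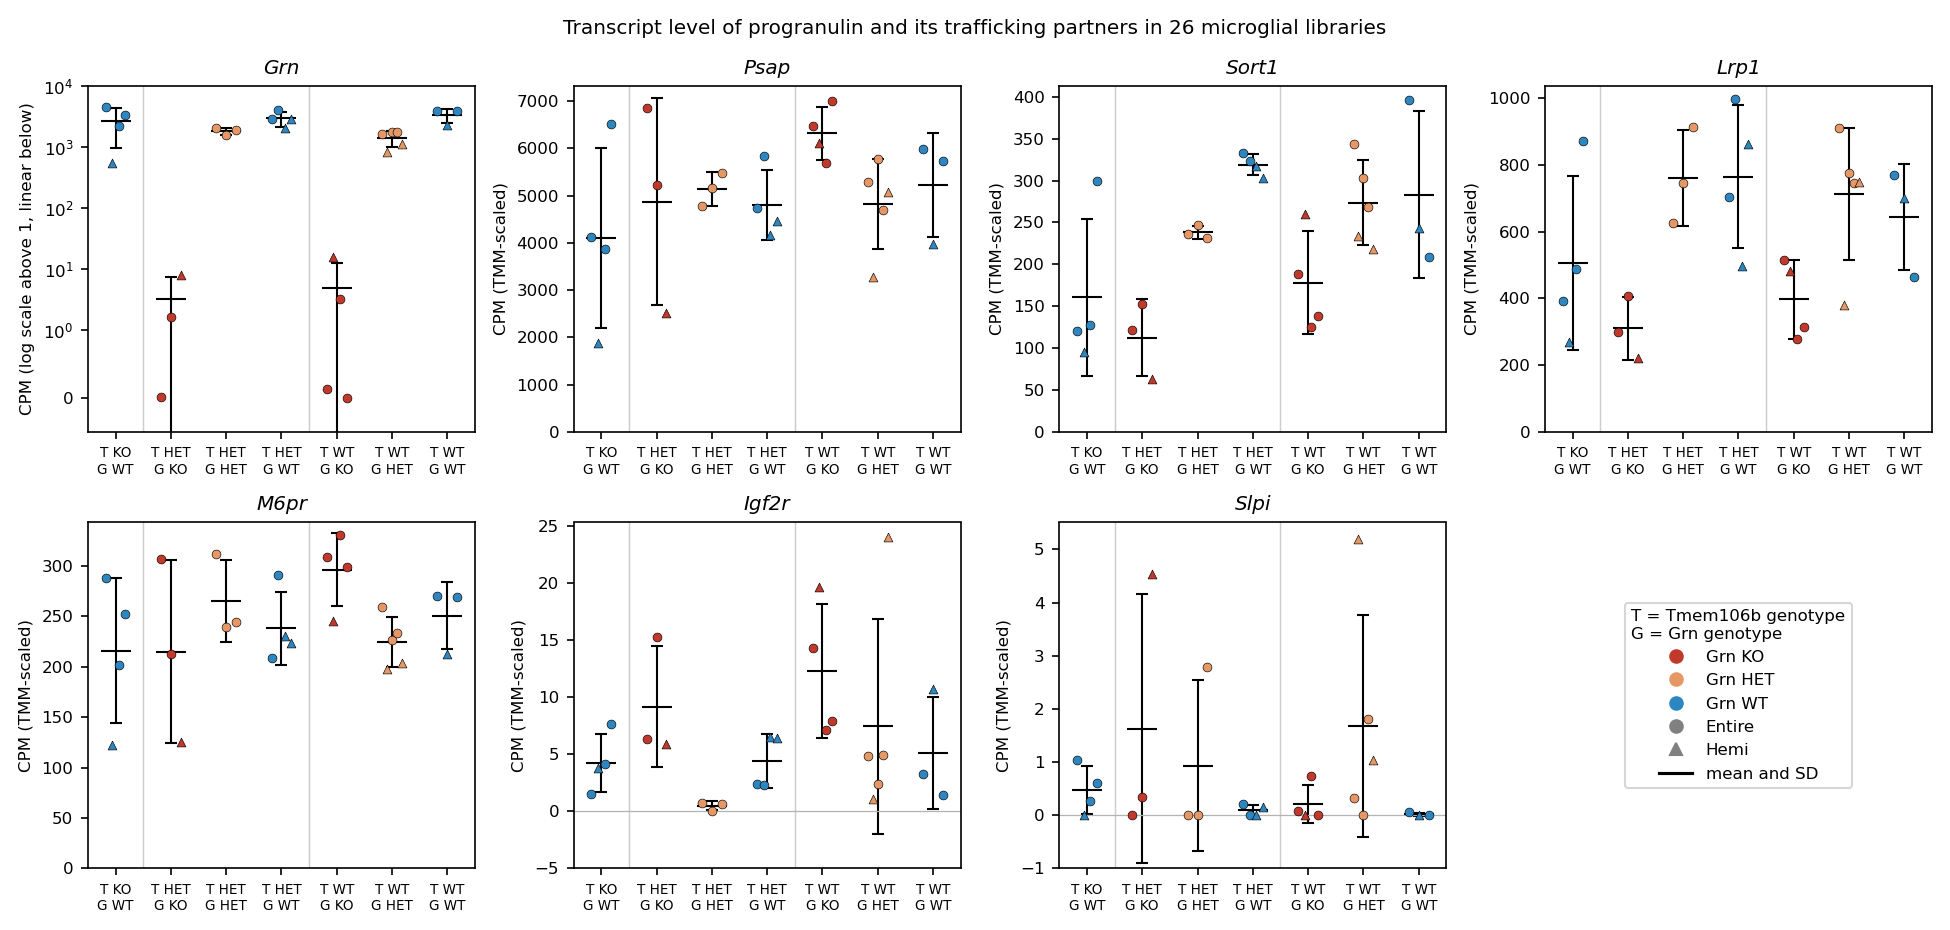
Level of each of the 7 genes in the 26 libraries (CPM of the TMM-scaled total; Grn on a scale that is logarithmic above 1 CPM). Each point is a library, circles are Entire and triangles Hemi dissections, and bars give the group mean and SD. In the Tmem106b HET background the 3 Grn KO libraries had 62.5 to 153 CPM of Sort1, below the 4 Grn WT libraries at 303 to 333 CPM.

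Grn (chromosome 11, 102430315 to 102437048, plus strand) followed its genotype labels. In Tmem106b HET mice it was at 0.0206, 1.64 and 8.04 CPM in Grn KO libraries, at 2033, 1554 and 1918 CPM in the Grn HET libraries, and at 2915, 4048, 2075 and 2881 CPM in the Grn WT libraries. In Tmem106b WT mice Grn KO libraries held 0.138, 16.0, 3.22 and 0 CPM, against 1626, 824, 1736, 1782 and 1103 CPM in Grn HET libraries and 3897, 2299 and 3838 CPM in the Grn WT libraries. No 2 Grn genotypes overlapped within either background, and the residual 16.0 and 8.04 CPM were in the Hemi libraries of the Grn KO groups. The group means of Grn KO libraries were 0.109% and 0.145% of those of Grn WT libraries in Tmem106b HET and WT mice. Those of Grn HET libraries were 61.6% of Grn WT in Tmem106b HET mice and 42.3% in Tmem106b WT mice.

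Grn fell in Grn KO against WT with a log2 change of -10.12 (SE 1.29), averaged over Tmem106b HET and WT, and an adjusted p of 9.33e-05 (edgeR's quasi-likelihood test, adjusted over all 21371 genes by Benjamini and Hochberg's method, which gave every adjusted p here unless another tool is named). For 1 lost allele the fit over all groups gave log2 changes of -0.24 (SE 1.29, adjusted p = 0.992) in Tmem106b HET mice and -1.59 (SE 1.24, adjusted p = 1) in Tmem106b WT mice. That fit shares its estimate of the spread and its sex and dissection terms with the near-zero Grn KO libraries. The differences themselves, as well as their SE, therefore depend on those libraries. A fit without those libraries, added after the values were seen, gave -1.19 (SE 0.40, unadjusted p = 0.00904) and -1.18 (SE 0.34, unadjusted p = 0.00338). Neither passed adjustment in that fit (0.859 and 1), although every Grn HET library was below every Grn WT library in both backgrounds. Genes all lower in this way made up 2.88% of those tested in Tmem106b HET mice and 0.926% in Tmem106b WT mice. Leaving out Tmem106b WT Grn WT replicate 2 ended the call of Grn KO against WT in Tmem106b WT mice (adjusted p = 0.0623, log2 change -11.74), which with all libraries had an adjusted p of 0.00774. On the opposite strand Fam171a2 overlaps Grn and held at most 1916 counts; whether strand was used in counting is not given in the sources used here.

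Sort1 (chromosome 3, 108284082 to 108361511, plus strand), the gene of the sorting receptor sortilin, was lower without Grn. Among Tmem106b HET mice it was at 121, 153 and 62.5 CPM in Grn KO libraries, at 237, 247 and 231 CPM in the Grn HET libraries, and at 333, 324, 317 and 303 CPM in the Grn WT libraries. The 3 genotypes did not overlap there, with Grn HET between the others. Of all genes, 13.5% were lower in every Grn KO library than in every Grn HET library. Sort1 fell in Grn KO against WT by 1.60 on the log2 scale (SE 0.36, adjusted p = 0.00796), to 0.330 of the Grn WT level. In this comparison 14.5% of all genes passed and 9.37% were lower in every Grn KO library than in every Grn WT library. The difference of Grn HET from WT there was -0.56 (SE 0.36, adjusted p = 0.856), within the spread as the fit over all groups judged it. In the fit without the Grn KO libraries it was -0.67 (SE 0.305, unadjusted p = 0.045, adjusted p = 0.859). Genes likewise lower in every Grn HET library than in every Grn WT library made up 2.88% of all genes.

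Among Tmem106b WT mice Sort1 overlapped between the genotypes. It was at 189, 260, 125 and 138 CPM in Grn KO libraries, at 344, 234, 303, 269 and 219 CPM in the Grn HET libraries, and at 396, 243 and 209 CPM in the Grn WT libraries. The highest Grn KO library, replicate 2, was a Hemi library and stood above 2 of the 3 Grn WT libraries. The difference of Grn KO from WT was -0.65 (95% interval -1.34 to 0.03, adjusted p = 0.462), in a comparison where 0.576% of all genes passed, and that of Grn HET from WT was -0.05 (interval -0.71 to 0.62, adjusted p = 1). The Grn KO effects in the 2 backgrounds differed by -0.95 (Tmem106b HET minus WT, SE 0.49), which did not pass (unadjusted p = 0.0697, adjusted p = 0.872).

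Averaged over both backgrounds, Sort1 fell in Grn KO libraries to 0.458 of Grn WT (log2 change -1.13, SE 0.25, adjusted p = 0.00497), where 18.1% of all genes passed. It also fell against Grn HET (log2 change -0.82, SE 0.24, adjusted p = 0.029), where 14.1% of all genes passed. The first of these held among Entire libraries alone (-1.02, adjusted p = 0.0181), and the 8 Hemi libraries were not fitted alone. The second missed the threshold in 11 of 24 further settings, which include leaving out any 1 of Tmem106b HET Grn KO replicates 1 and 3, Tmem106b HET Grn HET replicates 1, 2 and 3, Tmem106b WT Grn KO replicates 1, 3 and 4, and Tmem106b WT Grn HET replicate 1, with adjusted p of 0.0505 to 0.0915. In Tmem106b HET mice the fall in Grn KO against WT was lost without Grn KO replicate 3 (-1.27, adjusted p = 0.0755).

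Lrp1 (chromosome 10, 127538161 to 127621148, minus strand), a large endocytic receptor of the LDL receptor family that takes up prosaposin, was also lower without Grn. Among Tmem106b HET mice it was at 301, 408 and 222 CPM in Grn KO libraries, at 624.7, 745 and 913 CPM in the Grn HET libraries, and at 704, 998, 497 and 863 CPM in the Grn WT libraries. Every Grn KO library was below every library of the other Grn genotypes, which overlapped each other. Of all genes, 13.5% were lower in every Grn KO library than in every Grn HET library, and 9.37% than in every Grn WT library. Lrp1 fell in Grn KO against WT by 1.36 on the log2 scale (SE 0.36, adjusted p = 0.018), to 0.390 of the Grn WT level, where 14.5% of all genes passed. The difference of Grn HET from WT was -0.19 (interval -0.91 to 0.53, adjusted p = 0.953).

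In Tmem106b WT mice Lrp1 was at 515, 483, 277 and 313 CPM in Grn KO libraries, at 910, 382, 775, 748 and 748 CPM in the Grn HET libraries, and at 769, 700 and 465 CPM in the Grn WT libraries. The lowest Grn WT library overlapped the Grn KO range, and the difference was -0.70 (interval -1.38 to -0.02), unadjusted p = 0.0583 and adjusted p = 0.424. Averaged over both backgrounds, Lrp1 fell in Grn KO libraries to 0.490 of Grn WT (log2 change -1.03, SE 0.25, adjusted p = 0.00839) and to 0.496 of Grn HET (log2 change -1.01, SE 0.25, adjusted p = 0.0104). In these comparisons 18.1% and 14.1% of all genes passed. The Grn HET difference from WT, averaged, was -0.02 (interval -0.50 to 0.46, adjusted p = 1). The averaged Grn KO fall missed the threshold once replicate 2 of Tmem106b WT Grn WT was left out (-0.81, adjusted p = 0.0762), and the call in Tmem106b HET mice was lost without Grn KO replicate 1 (-1.25, adjusted p = 0.0578), Grn KO replicate 3 (-1.19, adjusted p = 0.115) or Grn WT replicate 2 (-1.17, adjusted p = 0.0637), at differences near the -1.36 of all libraries. Grn KO against WT and Grn HET against WT share their Grn WT libraries.

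**Figure D2:**
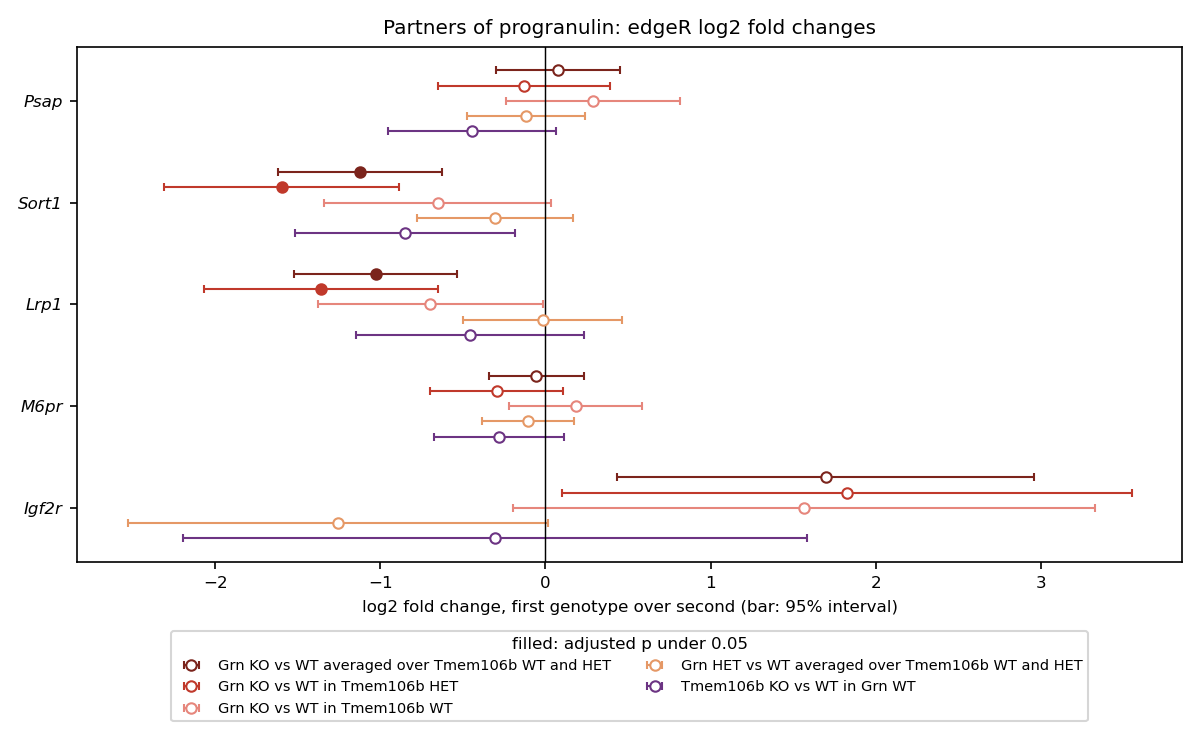
log2 fold changes of 5 partners of progranulin in 5 comparisons, with 95% intervals; filled points passed at an adjusted p under 0.05. Sort1 and Lrp1 lie below 0 with filled points in Grn KO against WT in Tmem106b HET mice and averaged (-1.13 and -1.03), while Psap (0.08) and M6pr (-0.06) straddle 0.

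The summed level of the 8 microglial markers was lower in Grn KO than in Grn WT libraries. Within groups this sum moved with Sort1 and Lrp1 in some cases and not in others. In Tmem106b HET mice it was 10420 to 35000 CPM in Grn KO libraries, 49240 to 54280 CPM in Grn HET libraries and 36450 to 52620 CPM in Grn WT libraries. Among Tmem106b WT mice it was 27710 to 34740 CPM in Grn KO libraries, 29490 to 50800 CPM in Grn HET libraries and 42860 to 54890 CPM in Grn WT libraries, so that no Grn KO library reached the Grn WT range in either background. The library of lowest sum had its group's lowest Lrp1 in Tmem106b HET Grn KO (222 CPM) and Tmem106b KO Grn WT (269 CPM). Both also had their group's lowest Sort1. The same held for Lrp1 in Tmem106b HET Grn WT (497 CPM) and Tmem106b WT Grn HET (382 CPM), but not for Sort1. In Tmem106b WT Grn WT and Tmem106b HET Grn HET neither gene was lowest in that library. In Tmem106b WT Grn KO replicate 2, of lowest sum (27710 CPM), Sort1 was the group's highest, at 260 CPM. Replicate 3, with the group's highest sum (34740 CPM), had its lowest Sort1 and Lrp1, at 125 and 277 CPM. None of the 8 microglial markers was at 0 in any library. The summed level of 10 neuronal markers, all detected in every library, ran the other way in Tmem106b HET mice, with 504 to 6505 CPM in Grn KO, 49.8 to 190 CPM in Grn HET and 65.8 to 1315 CPM in Grn WT libraries. In Tmem106b WT mice it was 461 to 819 CPM in Grn KO, 84.0 to 2724 CPM in Grn HET and 88.9 to 1224 CPM in Grn WT libraries.

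With neuronal, oligodendrocyte and choroid plexus marker sums added as covariates, a setting chosen after the data were seen, the averaged Grn KO differences from WT were -0.92 for Sort1 (adjusted p = 0.213) and -0.92 for Lrp1 (adjusted p = 0.31). The calls were lost at much the same size of difference, in a fit that called 122 genes in place of 3863. Without the 2 libraries of lowest microglial marker sum, likewise added, the differences in Tmem106b HET mice were -1.23 for Sort1 (adjusted p = 0.0632) and -1.15 for Lrp1 (adjusted p = 0.102). The averaged falls of both genes in Grn KO against WT still passed in that setting. The averaged fall of Sort1 against Grn HET did not (-0.68, adjusted p = 0.0654). The part of the libraries' cell make-up in these differences was not tested further.

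**Figure D3:**
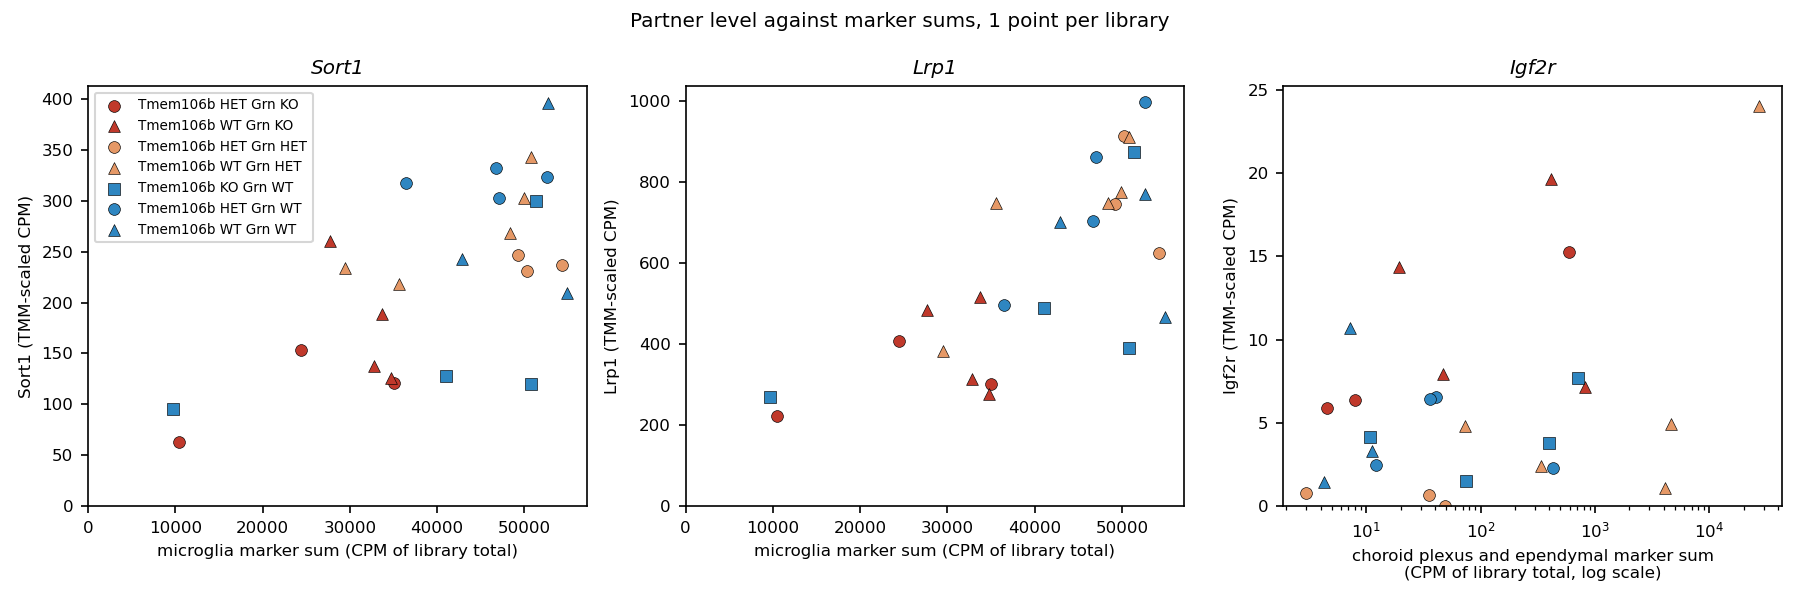
Sort1 and Lrp1 against the summed level of 8 microglial markers, and Igf2r against that of 7 choroid plexus and ependymal markers (log axis); each point is a library, coloured by Grn genotype and shaped by Tmem106b genotype. The 2 libraries at 9692 and 10420 CPM of microglial markers have the 2 lowest Lrp1 values, 269 and 222 CPM, and the Igf2r value of 24.0 CPM belongs to the library with 27380 CPM of choroid plexus markers.

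M6pr (chromosome 6, 122308720 to 122317680, plus strand), the gene of the cation-dependent mannose 6-phosphate receptor, passed in none of the 13 comparisons. Among Tmem106b HET mice it was at 307, 213 and 125 CPM in Grn KO libraries, at 312, 240 and 245 CPM in Grn HET libraries, and at 208, 291, 230 and 224 CPM in Grn WT libraries. Among Tmem106b WT mice it was at 309, 246, 331 and 299 CPM in Grn KO libraries, at 260, 198, 227, 234 and 204 CPM in Grn HET libraries, and at 270, 213 and 270 CPM in Grn WT libraries. All groups overlapped, and the lowest Grn KO value of 125 CPM was in replicate 3 of the Tmem106b HET group, the library with few microglial markers. The averaged Grn KO difference from WT was -0.06 on the log2 scale, with an interval of -0.35 to 0.23. Reads of the processed copy M6pr-ps, at a median of 24.9 CPM, could not be told from those of M6pr, since the handling of shared reads is not given in the sources used here.

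Igf2r (chromosome 17, 12682406 to 12769664, minus strand) encodes the cation-independent mannose 6-phosphate receptor, which also binds insulin-like growth factor 2, and was low in microglia. In Tmem106b HET mice it was at 6.36, 15.3 and 5.87 CPM in Grn KO libraries, at 0.762, 0.0191 and 0.632 CPM in Grn HET libraries (38, 1 and 31 counts), and at 2.44, 2.27, 6.55 and 6.42 CPM in Grn WT libraries. The Grn HET libraries were below all others there, and the Grn KO libraries overlapped the 2 Hemi libraries of Grn WT. Of all genes tested there, 16.9% were higher in every Grn KO library than in every Grn HET library. Genes lower in every Grn HET library than in every Grn WT library made up 2.88%. In Tmem106b WT mice Igf2r was at 14.4, 19.7, 7.16 and 7.94 CPM in Grn KO libraries, at 4.83, 1.06, 2.42, 4.94 and 24.0 CPM in Grn HET libraries, and at 3.29, 10.7 and 1.42 CPM in Grn WT libraries. The 24.0 CPM belonged to Grn HET replicate 5, which also held the highest choroid plexus and ependymal marker sum of the study, 27380 CPM, against 2.97 to 4613 CPM in the others.

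Averaged over both backgrounds, Igf2r rose in Grn KO against Grn HET by 2.95 on the log2 scale (SE 0.67, adjusted p = 0.00689), 7.75-fold, where 14.1% of all genes passed. The 2 genotypes lay apart in Tmem106b HET mice, where the 3 Grn HET libraries held 38, 1 and 31 counts. In Tmem106b WT mice they overlapped (7.16 to 19.7 against 1.06 to 24.0 CPM). The averaged call passed in 23 of 24 other settings, the exception being the marker sums as covariates (2.995, adjusted p = 0.121). Against Grn WT the difference was 1.70 (SE 0.64), 3.24-fold, with an unadjusted p of 0.0159 and an adjusted p of 0.073. It passed in 5 of 23 other settings, among them DESeq2 (adjusted p = 0.0131), Entire libraries alone (2.88, adjusted p = 0.00656), and the fits without Tmem106b HET Grn KO replicate 3 (0.0405) or Tmem106b WT Grn WT replicate 2 (0.0197). The low values of the double heterozygotes gave differences of -3.01 from Tmem106b HET Grn WT (unadjusted p = 0.00798, adjusted p = 0.854) and -3.90 from Tmem106b WT Grn HET (unadjusted p = 0.0013, adjusted p = 0.558). Each passed in DESeq2 alone among the settings run (adjusted p = 0.0332 and 0.000507). They rest on 3 libraries, all Entire. Neuronal markers moved with Igf2r in Tmem106b HET mice: their summed level was 504 to 6505 CPM in Grn KO libraries and 49.8 to 190 CPM in Grn HET libraries, and in the Grn WT libraries 65.8, 71.5, 628 and 1315 CPM stood beside 2.44, 2.27, 6.55 and 6.42 CPM of Igf2r. In Tmem106b WT mice the neuronal ranges overlapped, with 461 to 819 CPM in Grn KO, 84.0 to 2724 CPM in Grn HET and 88.9 to 1224 CPM in Grn WT libraries. The highest neuronal sum of all libraries, 7176 CPM, was in the Tmem106b KO Grn WT group, where Igf2r was at 1.51 to 7.67 CPM. With neuronal and other marker sums as covariates the difference of Grn KO from HET was as large, as given above, but did not pass. The part of neuronal content in the Igf2r values was not tested further. The antisense gene Airn overlaps Igf2r and held at most 22 counts.

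Psap (chromosome 10, 60277627 to 60302597, plus strand), the gene of prosaposin, was the most abundant of the 7 and passed in no comparison. Among Tmem106b HET mice it was at 6857, 5231 and 2523 CPM in Grn KO libraries, at 4770, 5167 and 5479 CPM in Grn HET libraries, and at 4730, 5845, 4175 and 4454 CPM in Grn WT libraries. Among Tmem106b WT mice it was at 6469, 6109, 5690 and 7004 CPM in Grn KO libraries, at 5290, 3284, 5781, 4692 and 5083 CPM in Grn HET libraries, and at 5981, 3971 and 5735 CPM in Grn WT libraries. The Grn KO range reached above the Grn WT range in both backgrounds and overlapped it, with the single low value of 2523 CPM in Tmem106b HET replicate 3. The averaged Grn KO difference from WT was 0.08 on the log2 scale, with an interval of -0.30 to 0.45 and an adjusted p of 0.819. It was -0.13 (interval -0.65 to 0.39) in Tmem106b HET mice and 0.29 (interval -0.24 to 0.81) in Tmem106b WT mice. Without the 2 libraries of lowest microglial marker sum it was 0.26 (adjusted p = 0.247).

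Slpi (chromosome 2, 164354070 to 164389095, minus strand) was close to its detection limit. In Tmem106b HET mice its counts were 0, 20 and 265 in Grn KO libraries, 0, 0 and 137 in Grn HET libraries, and 11, 0, 0 and 9 in Grn WT libraries. In Tmem106b WT mice they were 5, 0, 30 and 0 in Grn KO libraries, 17, 280, 0, 75 and 53 in Grn HET libraries, and 2, 0 and 0 in Grn WT libraries. The highest level was 5.20 CPM in Tmem106b WT Grn HET replicate 2, and no comparison passed. In Tmem106b KO Grn WT libraries the counts were 42, 0, 12 and 26. No fold change is given because the Grn WT groups of Tmem106b HET and WT mice hold almost no counts. A summed level of 9 neutrophil markers, of which Ly6g was at 0 in all 26 libraries and Elane in 25, was also highest in that library, at 39.8 CPM, nearly all of it from the single gene Retnlg. The sum was 10.7 CPM in Tmem106b HET Grn KO replicate 3 with 4.54 CPM of Slpi, but 16.7 CPM in Tmem106b WT Grn KO replicate 1 with 0.0864 CPM of Slpi; the part of such cells was not tested.

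With lower Tmem106b none of the 7 genes passed the threshold in edgeR in any comparison; DESeq2 called Igf2r in Tmem106b HET against WT among Grn HET mice, as given above. With Grn intact, Grn transcript was at 4470, 554, 2215 and 3347 CPM in the Tmem106b KO libraries, against 3897, 2299 and 3838 CPM in the Tmem106b WT libraries. The Tmem106b KO range enclosed the other, and its lowest value was in replicate 2, the Hemi library with few microglial markers. Sort1 was at 120.0, 95.2, 128 and 300 CPM in the Tmem106b KO libraries, so that 3 of the 4 were below every Tmem106b WT library (209 to 396 CPM). The difference was -0.85 (SE 0.34), with an unadjusted p of 0.0209 and an adjusted p of 0.434, in a comparison where 0.00468% of all genes (1 gene, lower) passed. Lrp1 was at 391, 269, 488 and 873 CPM in the Tmem106b KO libraries, M6pr at 288, 122, 202 and 253 CPM, Psap at 4127, 1881, 3859 and 6523 CPM, and Igf2r at 1.51, 3.77, 4.15 and 7.67 CPM. All 4 overlapped their Tmem106b WT values.

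In 6 comparisons, those of Grn HET with WT and of Tmem106b HET with WT, averaged or within a single background, and in both interactions of Grn with Tmem106b, edgeR called no gene at all, and the percentage called was 0 among the 21371 genes. At an unadjusted p under 0.05 the numbers of genes were 734 and 1183 for Grn HET against WT in Tmem106b WT and HET mice and 850 averaged. They were 745, 1451 and 811 for Tmem106b HET against WT in Grn WT, HET and KO mice, and 917 and 1196 for the interactions with Grn KO and HET. Of the 7 genes, Igf2r had an unadjusted edgeR p under 0.05 in both comparisons of the double heterozygotes named above, and in the interaction with Grn HET (-3.51, unadjusted p = 0.0126, adjusted p = 0.876). M6pr had one for Tmem106b HET against WT without Grn (-0.47, unadjusted p = 0.0308, adjusted p = 0.918), and so did Slpi for Grn HET against WT averaged (unadjusted p = 0.0221, adjusted p = 0.984). The other tools differed from each other here: limma-voom called 0 genes in each of these comparisons, and DESeq2 called 307, 278 and 278, then 265, 515 and 93, then 207 and 402 in the same order.

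The 7 genotype groups did not order by Grn dosage for every partner. Grn itself averaged 1835 ± 250 and 1414 ± 427 CPM in Grn HET libraries of Tmem106b HET and WT mice (SD, n = 3 and 5), against 2980 ± 811 and 3345 ± 906 CPM in Grn WT libraries (SD, n = 4 and 3) and 2646 ± 1670 CPM in Tmem106b KO Grn WT (SD, n = 4). In its order the sole gap between neighbours lay above the 2 Grn KO groups. By group mean, Sort1 ran from 319 CPM in Tmem106b HET Grn WT through 283 CPM in the double wild type, 274 CPM in Tmem106b WT Grn HET, 238 CPM in Tmem106b HET Grn HET, 178 CPM in Tmem106b WT Grn KO and 161 CPM in Tmem106b KO Grn WT to 112 CPM in Tmem106b HET Grn KO, with the ranges of each pair of neighbours overlapping. For Lrp1 the 2 lowest means were likewise those of the Grn KO groups, 310 and 397 CPM, and the highest was 765 CPM in Tmem106b HET Grn WT, again with all neighbours overlapping. Psap and M6pr were highest in Tmem106b WT Grn KO, at 6318 ± 557 and 296 ± 36.4 CPM (SD, n = 4), and all their neighbours in order overlapped. Igf2r had its 2 highest means in the Grn KO groups, 12.3 and 9.17 CPM, and its lowest, 0.471 CPM, in the double heterozygotes, whose range lay apart from the next. Neighbours in the order of Slpi overlapped throughout.

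Among the 11 Grn WT libraries, where no Grn allele is missing, Grn varied between 554 and 4470 CPM, and M6pr varied with it. The correlation of log2(CPM + 1) of Grn with M6pr was Pearson's r = 0.966 (permutation test, p = 8e-05, adjusted p = 0.00048 over the 6 partners) and Spearman's rho = 0.873 (permutation test, adjusted p = 0.00594). Without the 2 libraries farthest from the median Grn level, Tmem106b KO Grn WT replicates 1 and 2, r was 0.846, and within the 7 Entire libraries it was 0.95 (exact permutation p = 0.000595). With Psap, r was 0.902 (permutation test, adjusted p = 0.0078) but rho was 0.636 (adjusted p = 0.0944), and within Entire libraries r was 0.439 (exact permutation p = 0.331). For Psap, r was 0.624 without Tmem106b KO Grn WT replicate 2 alone (permutation test, adjusted p = 0.114) and 0.902 without replicates 1 and 2 of that group, the 2 libraries farthest from the median Grn level.

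The other 4 partners did not pass. Pearson's r was 0.531 for Sort1, 0.619 for Lrp1, -0.297 for Igf2r and 0.362 for Slpi (permutation tests, adjusted p = 0.123, 0.08, 0.409 and 0.268). That of Sort1 was -0.011 without Tmem106b KO Grn WT replicate 2, and without replicate 1 those of Sort1 and Lrp1 were 0.775 and 0.809 (adjusted p = 0.0215 and 0.0184). The 4 Hemi libraries were too few for a value of their own. All these values share the scaling of each library, and the library that anchors the low end holds 9692 CPM of microglial markers, against 36450 to 54890 CPM in the other Grn WT libraries. Without it, r with M6pr was 0.877.

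**Figure D4:**
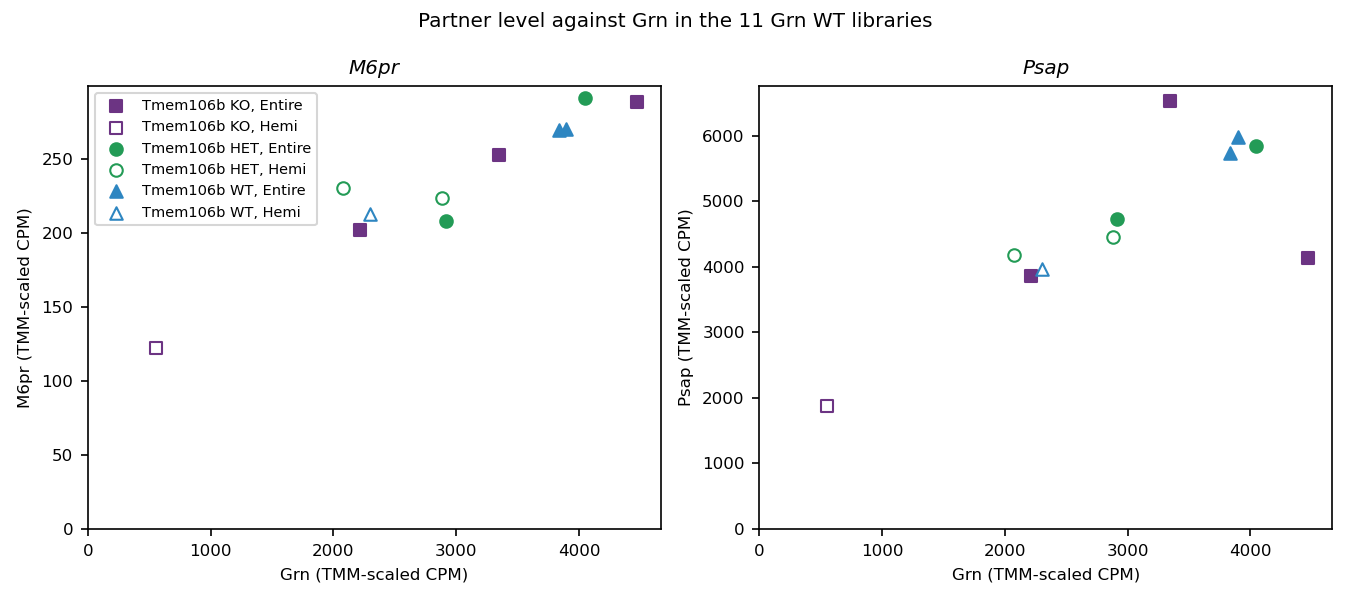
M6pr and Psap against Grn in the 11 Grn WT libraries (CPM of the TMM-scaled total, 1 point per library; shape and colour give the Tmem106b genotype, open symbols are Hemi dissections). M6pr lies along a line (r = 0.966), whereas Psap scatters at high Grn, and the open square at the lower left is Tmem106b KO Grn WT replicate 2.

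Genes whose level over all 26 libraries was most like that of each of the 7 were ranked by Pearson's r of log2(CPM + 1) among 15863 genes, as a description of libraries that share depth, scaling and genotype. For Grn they were Upk1b (r = 0.888), Arhgef10l (0.841), Serpinf1 (0.833), Csmd3 (0.826) and Iffo1 (0.823). For Psap they included the lysosomal enzyme genes Naglu (0.941) and Tpp1 (0.93). For Sort1 they were Lats2 (0.95), Tjp1 (0.949) and Plxnb2 (0.939), and for Lrp1 they were Dgkd (0.944), Tgfbrap1 (0.939) and Stab1 (0.939). M6pr was most like its own processed copy M6pr-ps (0.973), followed by the macrophage receptor gene Adgre1 (0.957) and Mfsd1 (0.952). Igf2r was most like Shisal1 (0.804), Ccdc113 (0.801) and Sh3bp4 (0.789), and Slpi was most like Alox15 (0.866), Gnmt (0.815) and Fam104a (0.794), both at a looser fit than the abundant genes.

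The wider pathway was read from 9 lists holding 66 further genes, of which 64 passed the filter on low counts (Lrp2 and Elane did not). In Grn KO against WT averaged over both backgrounds, 14 rose and 11 fell, and their median log2 change was 0.035, against 0.059 over all genes tested, of which 18.1% passed. The 25 adjusted p-values were between 0.000555 and 0.044. With the marker sums as covariates 2 of the 25 passed, Ctsb and Mmp12, and without the 2 libraries of lowest microglial marker sum 20 of them did. The calls differed in how often they passed in 23 other settings: Ap1g2 and Gga1 did in 6, Lgmn in 8, Lrp10, Mmp9 and Sorcs2 in 9, Notch1 in 10, Lrp5 in 11 and Gnptg in 13, and the other 16 genes in 16 to 23. Leaving out 1 library gave 14 to 27 genes, with 14 without Tmem106b WT Grn WT replicate 2 and 15 without Tmem106b WT Grn WT replicate 1, Tmem106b WT Grn KO replicate 1 or Tmem106b HET Grn WT replicate 2.

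Of the receptors, the VPS10 domain family to which sortilin belongs split: Sorcs2 rose by 2.52 on the log2 scale (SE 0.83), from a low mean level of 6.45 CPM over all libraries, while Sorl1 (-0.16), Sorcs1 (0.13) and Sorcs3 (1.44) did not pass. In the LDL receptor family, 3 of 11 tested rose and 3 fell, Lrp1 included. Lrp8, a receptor of apolipoprotein E and reelin, rose by 1.93 (SE 0.49), Lrp12 by 0.61 (SE 0.18) and Lrpap1, the chaperone that keeps these receptors free of ligand on their way to the surface, by 0.57 (SE 0.13). Lrp5, a Wnt co-receptor, fell by 1.21 (SE 0.38) and Lrp10 fell by 0.61 (SE 0.20). Of the enzymes that make the mannose 6-phosphate tag, Gnptg, a subunit of the phosphotransferase, rose by 0.41 (SE 0.13), and Gnptab (0.19) and Nagpa (-0.59) did not pass. Of the proposed cell surface receptors of progranulin and prosaposin 4 of 6 fell: Notch1 by 1.46 (SE 0.47), Epha2 by 1.45 (SE 0.28), Tnfrsf1b by 0.98 (SE 0.21) and Tnfrsf1a by 0.90 (SE 0.22). Gpr37 and Gpr37l1 did not pass (adjusted p = 0.234 and 0.823). The list's median was -1.22, against 0.059 over all 21371 genes tested, of which 1578 were called lower. With the marker sums as covariates none of these receptor genes passed.

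The machinery that gathers these receptors into carriers changed in both directions. Of the GGA adaptors, AP-1 subunits and clathrin chains, Gga2 rose by 1.004 on the log2 scale (SE 0.17), Cltb by 0.80 (SE 0.23) and Ap1s1 by 0.71 (SE 0.16). Ap1g2 fell by 0.77 (SE 0.26), Ap1b1 by 0.49 (SE 0.14) and Gga1 by 0.42 (SE 0.14), and the other 6 of 12 did not pass. Of 10 genes of the retromer, which returns sortilin and the mannose 6-phosphate receptors from endosomes to the Golgi, Vps29 rose by 0.68 (SE 0.13) and Snx3 by 0.54 (SE 0.14), and the core subunit gene Vps35 was at 0.05 (SE 0.12). None of 4 other sorting and export receptor genes passed, with Surf4, which exports prosaposin and progranulin from the endoplasmic reticulum, at -0.29 and Scarb2 at -0.38.

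Among proteases reported to cut progranulin, Mmp12 rose by 2.88 (SE 0.48), 7.34-fold, and the lysosomal cathepsin B gene Ctsb rose by 1.32 (SE 0.21), 2.50-fold. Mmp9 fell by 1.07 (SE 0.34) and Lgmn, the lysosomal asparagine endopeptidase, fell by 0.91 (SE 0.29). Of the enzymes that work with saposins, Gla, the alpha-galactosidase, rose by 2.63 (SE 0.48), 6.21-fold, and Glb1, the beta-galactosidase, by 0.99 (SE 0.25), while Asah1, the acid ceramidase, was at -0.20 (SE 0.20). Gla and Glb1 thus rose where Psap itself did not pass. Of 50 pathway genes with a promoter window, Gla, Gnptg and Vps26a held TCACGTGA in any of their windows, 6.0%, against 1.12% of 27025 genes counted the same way. The first 2 rose and Vps26a was at 0.30 (adjusted p = 0.147). The other pathway genes that rose, Glb1, Ctsb and Mmp12 among them, had no window with it. Whether the motif bears on these changes was not tested.

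**Figure D5:**
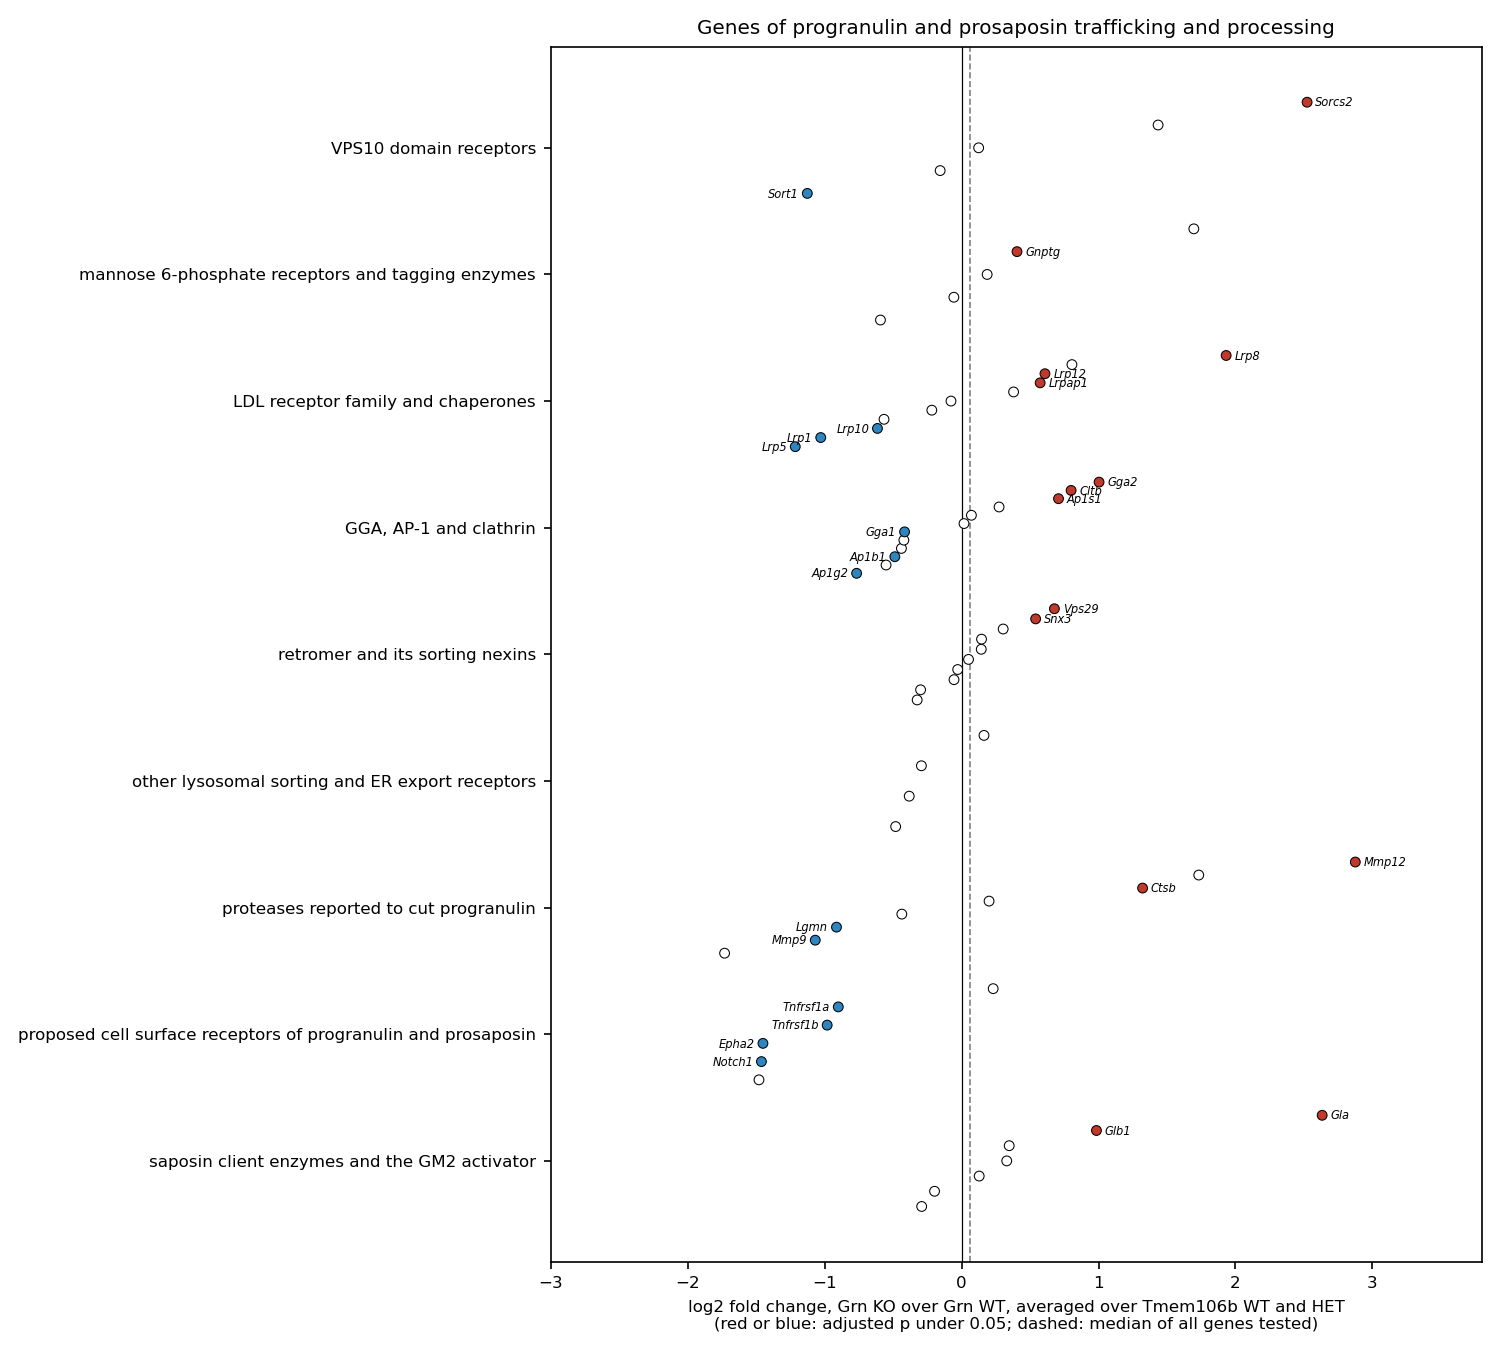
log2 fold change of each tested pathway gene in Grn KO against WT, averaged over Tmem106b WT and HET, by list; red points rose and blue points fell at an adjusted p under 0.05, and the dashed line is the median of all genes tested (0.059). The 4 surface receptors that fell lie between -1.46 and -0.90, and Sorcs2, Gla and Mmp12 lie at 2.52, 2.63 and 2.88.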

How the data were processed

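Poly(A) RNA of mouse microglia was sequenced (RNeasy micro extraction, SMART-Seq v4 and Nextera XT libraries, per the labels' protocols). The authors deposited whole-number counts and RPKM per gene for each library, per the file headers; GSNAP and build GRCm38 are named in the submitters' processing notes. How multiply mapping reads and strand were treated is not given in the sources used here.

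Counts of 52636 genes entered edgeR 4.0.16 (R 4.3.3): filterByExpr kept 21371 genes, TMM scaled the libraries, and a robust quasi-likelihood fit over all 26 libraries had genotype group, sex and dissection as terms. P-values were adjusted by Benjamini-Hochberg over all tested genes, with a threshold of 0.05. The SE is the log2 fold change divided by the root of F, and 95% intervals are 1.96 SE to each side. As 1.96 is the normal quantile, the intervals are narrower than the quasi-likelihood test implies. An interval can therefore exclude 0 at an unadjusted p above 0.05. Relations to Grn used log2(CPM + 1) and 100000 permutations. RPKM served to compare levels between genes; marker sums are CPM of the plain total. The code was tested on simulated data. DESeq2 1.42.0, limma 3.58.1, other covariates, scalings and filters, Entire libraries alone and leaving out each library were alternatives.

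The 7 genes, the pathway and marker lists and the tests were chosen with earlier results of these data known. Pathway genes are named where they passed in Grn KO against WT averaged over backgrounds, with a few chosen after their values were seen. Coordinates are GENCODE vM21 (GRCm38), which matched 52489 genes; the 147 without a match held at most 0.01% of counts. Promoter windows matched 5 of the 7 genes; Sort1 and M6pr had none. Values of 2 genes are not reported here.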

Additional observations from a re-analysis of the deposited data

Results flagged for a closer look

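Of 28 sets of a gene and a group of 4 or 5 libraries, 3 had 1 library far from the others by Dixon's test at the 95% level; chance flags about 1 set in 20. Sort1 was at 299.9 CPM in Tmem106b KO Grn WT replicate 4, against 95.2 to 128 CPM in the other 3 libraries of its group. Replicate 4 had a microglial marker sum of 51330 CPM, but replicate 1 had nearly as much, 50750 CPM, beside 120 CPM of Sort1. Igf2r was at 24.04 CPM in Tmem106b WT Grn HET replicate 5, against 1.06 to 4.94 CPM in the other 4, beside 27380 CPM of choroid plexus and ependymal markers. In replicate 3 of Tmem106b WT Grn KO, Slpi was at 0.7428 CPM (30 counts), while its other 3 libraries held 0 to 0.0864 CPM. The part of other cell types in these values was not tested.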

How the results depend on the processing

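No result changed direction past the threshold under any setting run. No paired analysis was possible because the labels carry no replicate numbers that groups share. All 7 genes passed the filter on low counts, so the pseudocount alternative for filtered genes gave no value. Of the 7 genes, DESeq2 called 1 (Igf2r) in Grn HET against WT in Tmem106b HET mice and 1 in Tmem106b HET against WT in Grn HET mice, against 0 in edgeR. With marker sums as covariates, added after seeing the data, 0 passed in Grn KO against WT in Tmem106b HET mice (3 in the fit as reported), 1 averaged (3) and 1 in Grn KO against HET (4). Without the 2 libraries of lowest microglial marker sum, 1 passed in Grn KO against WT in Tmem106b HET mice. Leaving out 1 library gave 1 to 3 there, 0 to 1 in Tmem106b WT mice, 3 to 4 averaged, 3 to 4 against Grn HET and 0 to 0 elsewhere. The call of Lrp1 in Tmem106b HET mice was also lost with no covariates (adjusted p = 0.0761) or sex alone (0.0775), at a log2 change of -1.30 in both against -1.36.

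For the relation to Grn, Psap had r = 0.816 on plain CPM and no longer passed; leaving out 1 library gave 0.624 to 0.971 for Psap, 0.877 to 0.981 for M6pr, -0.011 to 0.775 for Sort1 and 0.094 to 0.809 for Lrp1.

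Over all genes, Grn KO against WT in Tmem106b HET mice called 3093 genes in edgeR, 5264 in DESeq2, 224 with no covariates, 279 with sex alone, 1472 among Entire libraries, 2 with marker sums, 1548 without the 2 libraries and 1095 to 2753 leaving out 1. In Tmem106b WT mice 123 became 1170, 58, 45, 336, 22, 550 and 1 to 376 in the same order, and 185 in limma. Averaged, 3863 became 5812 in DESeq2, 1097 with no covariates, 1388 with sex alone, 122 with marker sums and 2147 to 4652 leaving out 1. Against Grn HET, 3008 became 4892, 1379, 1755, 120 and 1809 to 3708. For Tmem106b KO against WT, 1 became 548 in DESeq2 and 0 to 3 leaving out 1. Slpi and Igf2r, with 0 to 280 and 1 to 1228 counts, are the genes that depth limits.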
